A study of Mus musculus with 12 samples.

Results

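The semaphorin, plexin, neuropilin, Slit, Robo, netrin, Unc5 and Dcc genes were followed along the posterior neural tube in mouse embryos of the outbred CD1 stock, taken at embryonic day 9.5. The members were all genes with such a symbol on the Affymetrix array whose probe set was annotated to a single gene, 50 of the 18193 genes so annotated, each read from its brightest probe set. The tube was freed from neighbouring tissue after pancreatin digestion and divided into 6 pieces, numbered part 1 to part 6. The labels do not say which number is the caudal end, so values are given by part number. Each part was measured on 2 arrays, replicate 1 and replicate 2, from 2 embryos, giving 12 arrays of RNA amplified in 2 rounds. The replicate number is taken here as the embryo, which the labels do not state for each array. The values are MAS5 signals, linear brightness values scaled to the same trimmed mean on every array, where the median probe set had a signal between 16.7 and 19.1.

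These families steer migrating cells and growing axons. Semaphorins are secreted or membrane-bound cues read by plexins, and most secreted semaphorins need a neuropilin as the binding partner of the plexin. Slits are secreted repellents read by Robo receptors, and netrins attract growth cones through Dcc and repel them through Unc5 receptors. In the spinal cord the floor plate, the ventral midline of the tube, is a known source of Ntn1 and Slits, which guide the axons of commissural neurons. Blood vessels use several of the same molecules, among them Plxnd1, Robo4, Unc5b and Nrp1.

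Of the 50 members, 39 passed the filter on low signal and were tested together with all other genes. The Robo and neuropilin receptors Robo2, Nrp1 and Robo1, the plexin Plxnc1, and the ligands Ntn1, Sema3e, Sema3a and Slit1 rose with the part number, while the ligands Sema6a, Sema3f, Sema4d and Sema7a and the receptors Unc5b, Plxnd1 and Robo4 fell. That makes 8 members that rose, where 5.66% of all genes tested rose, and 7 that fell, where 7.08% of all genes fell (limma slope over 12 arrays, adjusted over 12089 genes). Together they are 15 of 39 members, against 12.7% of all genes. The slopes of these 15 had the same sign in both embryos taken singly, which passing the test over both embryos makes likely beforehand. The p-values rest on 2 embryos. Because each array holds a whole piece of tissue, fewer cells of a type and less RNA per cell cannot be told apart. The median slope of the 39 members was -0.03 log2 per part and that of all genes tested was -0.01. The F test, which asks whether a gene differs anywhere among the 6 parts, passed for 9 members, against 4.91% of all genes, and added Nrp2 to the members that passed the slope test. Without both arrays of part 1, 8 members passed the slope test and 5 the F test, and without both arrays of part 6, 3 passed the F test. Fewer arrays entered these fits and their shares over all genes are not given here, so the lower counts are not read as particular to the members.

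**Figure D1:**
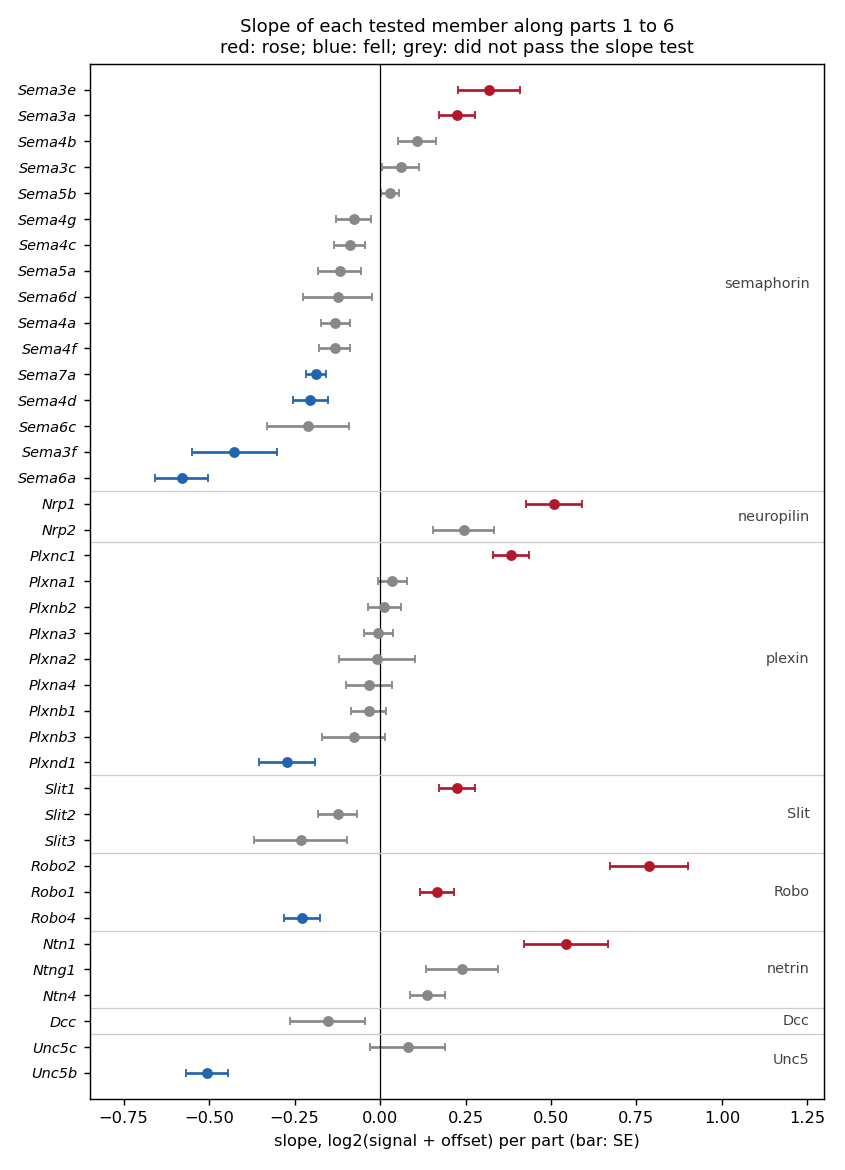
Slope of log2(signal + offset) per part number for the 39 tested members (horizontal axis, bar: SE over 12 arrays), grouped by family down the page. Robo2 has the steepest positive slope (0.79) and Sema6a the steepest negative one (-0.58), and 7 of 9 plexins lie close to 0.

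The promoters of 4 members are shown because their genes passed both the slope and the F test and have 1 listed start each. Among genes with a single listed start, which leaves out Robo2, and with Sema6a not shown, they have the 2 smallest slope p in each direction. The sequences are the 250 bases before the start of Plxnc1 (chr10:94944846-94945095, minus strand) and Nrp1 (chr8:128358823-128359072, plus strand), which rose, and of Unc5b (chr10:60831582-60831831, minus strand) and Sema7a (chr9:57939862-57940111, plus strand), which fell, from RefSeq on GRCm38.p6, read 5′ to 3′ on the gene's strand. Capitals mark the GC box GGGCGG, the nuclear receptor half-site AGGTCA and the E-box CAGCTG on either strand; the TATA box TATAAA and CCAAT were searched too, and no searched motifs overlapped in these windows.
Plxnc1: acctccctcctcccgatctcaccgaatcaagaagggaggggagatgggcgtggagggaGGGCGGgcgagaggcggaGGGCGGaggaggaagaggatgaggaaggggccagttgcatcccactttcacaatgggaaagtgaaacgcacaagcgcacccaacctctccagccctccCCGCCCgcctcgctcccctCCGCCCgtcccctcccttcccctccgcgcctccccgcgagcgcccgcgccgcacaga
Nrp1: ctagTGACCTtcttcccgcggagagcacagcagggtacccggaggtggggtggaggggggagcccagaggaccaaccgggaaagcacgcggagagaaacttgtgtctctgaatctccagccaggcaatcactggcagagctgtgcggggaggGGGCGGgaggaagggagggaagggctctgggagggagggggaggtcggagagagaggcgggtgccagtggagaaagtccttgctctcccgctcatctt
Unc5b: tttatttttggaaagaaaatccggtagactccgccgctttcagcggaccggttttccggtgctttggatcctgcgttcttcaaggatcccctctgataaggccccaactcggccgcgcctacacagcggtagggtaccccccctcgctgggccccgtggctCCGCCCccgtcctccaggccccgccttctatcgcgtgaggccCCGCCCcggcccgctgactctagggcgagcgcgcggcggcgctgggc
Sema7a: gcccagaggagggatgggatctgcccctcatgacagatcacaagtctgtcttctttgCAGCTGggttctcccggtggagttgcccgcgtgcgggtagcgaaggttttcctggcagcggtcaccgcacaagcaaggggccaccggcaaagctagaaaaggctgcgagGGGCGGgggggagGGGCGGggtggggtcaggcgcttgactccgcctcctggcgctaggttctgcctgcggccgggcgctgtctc

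All 4 windows hold the GC box, with 4 matches in Plxnc1, 1 in Nrp1 and 2 each in Unc5b and Sema7a. None holds TATAAA or CCAAT. The share of promoters with a GC box was 66.0% over the 53 listed promoters of 40 members, against 32.7% of the 32851 promoters of all genes. Only Nrp1 of the 4 holds the nuclear receptor half-site, which 14.0% of all promoters hold, and only Sema7a the E-box, which 13.0% hold. TATAAA occurs in 12.4% of all promoters and CCAAT in 33.8%. The 4 windows hold 22, 11, 27 and 17 CpG dinucleotides in the order printed, where the median is 13 for the members' promoters and 6 for all promoters. The rising and the falling pair are alike in GC content, with 68.8% and 64.4% in Plxnc1 and Nrp1, against 66.8% and 66.4% in Unc5b and Sema7a.

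Among the secreted semaphorins, Sema3e and Sema3a rose and Sema3f fell. Sema3e, which acts directly on Plxnd1 without a neuropilin, had signals of 91.7 and 86.2 in part 1, 225 and 293 in part 2, 391 and 371 in part 3, 411 and 367 in part 4, 417 and 484 in part 5, and 332 and 285 in part 6 (replicate 1, then replicate 2). Both arrays of part 1 lie below every other array, and part 5 is highest. Most of the change came in the first step, where Sema3e was higher in part 2 than in part 1 by 1.48 ± 0.18 log2 (SE, limma adjusted p = 0.0177), the only member called in any of the 5 consecutive steps (0.165% of all genes were higher at that step). With replicate 2 left out of part 1 or of part 2, that step no longer passed (0.0612 and 0.0925). The F test passed (adjusted p = 0.000632), as did part 6 against part 1 (1.74 ± 0.18 log2, adjusted p = 0.000398). The straight-line slope of 0.32 ± 0.090 (adjusted p = 0.0336) lost its call without either array of part 1 or of part 5 (up to 0.127). The 3 further probe sets of Sema3e had slopes of 0.25, 0.30 and 0.13, none of which passed among all probe sets (adjusted p = 0.0809, 0.227 and 0.301), and the slope of the mean over its probe sets did not pass either (0.0805). In the F test among all probe sets, these 3 had adjusted p = 0.00767, 0.00102 and 0.742, in the same order.

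Sema3a, a repellent for many axons that signals through Nrp1, had signals of 132 and 257 in part 1, 194 and 319.6 in part 2, 349.5 and 320.3 in part 3, 414 and 428 in part 4, 392 and 376 in part 5, and 371 and 457 in part 6. The embryos differed in parts 1 and 2, where replicate 1 was the lower, and all arrays of parts 3 to 6 lie above all arrays of parts 1 and 2. Its slope was 0.22 ± 0.053 log2 per part (limma adjusted p = 0.0132), and no single array removed the call. The mean over its 3 probe sets did not pass (adjusted p = 0.0583). Part 6 against part 1 gave 1.14 ± 0.31 log2 and did not pass (adjusted p = 0.0533), but passed with the embryo as a block (0.0285).

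Sema3f, which binds Nrp2, had signals of 212 and 78.3 in part 1, 169 and 163 in part 2, 73.3 and 60.5 in part 3, 39.1 and 19.8 in part 4, 40.0 and 83.8 in part 5, and 68.8 and 13.3 in part 6. Both embryos were high in part 2 and only replicate 1 in part 1, where replicate 2 lies within the range of parts 3 to 6, and the embryos were also far apart in part 6. The slope of -0.43 ± 0.12 (adjusted p = 0.0388) lost its call without any of 7 arrays: replicate 1 of part 1, 3, 4 or 5, either array of part 2, or replicate 2 of part 6 (up to 0.136). The other secreted semaphorin tested, Sema3c, did not pass. Sema3b, Sema3d and Sema3g did not pass the filter.

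Sema6a, a transmembrane semaphorin read by Plxna2 and Plxna4, was the member that fell most steeply. Its signals were 377 and 202 in part 1, 249.6 and 336 in part 2, 275 and 207 in part 3, 183 and 116 in part 4, 74.5 and 94.8 in part 5, and 41.0 and 27.5 in part 6. It stayed within one range over parts 1 to 3 and then declined, each array of part 6 lying below every array of the other parts. The slope was -0.58 ± 0.078 log2 per part (limma adjusted p = 0.000276). The mean was 34.3 ± 9.53 in part 6 and 289.5 ± 124 in part 1 (SD, n = 2), a difference of -2.88 ± 0.35 log2 (limma adjusted p = 0.000887). On this scale 31.3% of that difference had been covered by part 4 and 57.8% by part 5. Of 2 dimmer probe sets of Sema6a, one had a slope of -0.31 and passed among all probe sets (adjusted p = 0.0126), and the other, at -0.09, did not (0.577).

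Sema7a, which is anchored to the membrane by a lipid and binds Plxnc1, had low but even signals: 35.2 and 33.9 in part 1, 30.4 and 25.3 in part 2, 21.5 and 25.3 in part 3, 25.8 and 22.4 in part 4, 22.0 and 19.4 in part 5, and 14.3 and 13.0 in part 6. The 2 highest arrays are those of part 1 and the 2 lowest those of part 6. Its slope of -0.19 ± 0.029 (adjusted p = 0.000781) held on leaving out any array, while the F test (adjusted p = 0.0360) lost its call on leaving out any one of the 12 (up to 0.195). Its receptor Plxnc1 rose over the same parts.

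Sema4d, the ligand of Plxnb1, had signals of 308 and 152 in part 1, 273 and 279.9 in part 2, 215 and 171 in part 3, 189 and 155 in part 4, 156 and 129 in part 5, and 135 and 106 in part 6. The mean was highest in part 2, and from part 3 on each mean lies below that of the part before, and replicate 2 of part 1 is far below replicate 1. The slope was -0.20 ± 0.050 (adjusted p = 0.0162) and was not called without replicate 1 of part 1 or replicate 2 of part 6 (up to 0.0646). Part 6 against part 1 gave -0.83 ± 0.30 log2 and did not pass (adjusted p = 0.131), but passed with the embryo as a block (0.0491).

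The other 10 tested semaphorins passed neither test, with slopes between -0.21 and 0.11. Closest were Sema4a, which averaged 13.7 ± 3.09 in part 6 and 19.9 ± 0.380 in part 1 (slope -0.13 ± 0.042, adjusted p = 0.0600), and Sema4f, with 28.3 ± 10.04 in part 6 and 44.2 ± 12.9 in part 1 (-0.13 ± 0.045, adjusted p = 0.0702). With the embryo as a block Sema4f passed (0.0196). Sema3c, Sema4b, Sema4c, Sema4g, Sema5a, Sema5b, Sema6c and Sema6d had an adjusted p for the slope of at least 0.241.

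Both neuropilins were higher in part 6 than in part 1, with different courses. Nrp1, a co-receptor for Sema3a and for the vessel growth factor Vegfa, had signals of 40.1 and 44.0 in part 1, 25.8 and 25.2 in part 2, 33.5 and 33.3 in part 3, 90.4 and 79.1 in part 4, 155 and 72.1 in part 5, and 199.6 and 215 in part 6. All arrays of parts 4 to 6 lie above all arrays of parts 1 to 3, and part 2 is lowest. Its slope was 0.51 ± 0.083 log2 per part (adjusted p = 0.00113), and 3 further probe sets had slopes of 0.39, 0.58 and 0.38, each called among all probe sets. Means were 207 ± 11.0 in part 6 and 42.0 ± 2.75 in part 1, a difference of 2.19 ± 0.29 log2 (limma adjusted p = 0.00141).

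Nrp2, the co-receptor for Sema3f, had signals of 87.2 and 43.5 in part 1, 162 and 210.4 in part 2, 241 and 262 in part 3, 225 and 149 in part 4, 226 and 228 in part 5, and 208 and 192 in part 6. Both arrays of part 1 lie below every other array and both of part 3 above every other, while parts 2, 4, 5 and 6 overlap. The F test passed (adjusted p = 0.0293), as did part 6 against part 1 (1.63 ± 0.30 log2, adjusted p = 0.00980), and the slope did not (0.24 ± 0.090, adjusted p = 0.0974). The step to part 2 from part 1, 1.51 ± 0.30 log2, did not pass on its own (adjusted p = 0.108). The F call was lost without replicate 2 of part 1 or either array of parts 3, 5 and 6 (up to 0.107), and the part 6 against part 1 call without either array of part 6 (up to 0.0607). By part 2 Nrp2 had covered 93.1% of its part 6 minus part 1 difference and Sema3e 85.1% of its own, whereas the 2 arrays of Nrp1 in part 2 lay below both of part 1. Further probe sets of Nrp2 had slopes of 0.28, 0.18 and 0.26, and only the last slope passed among all probe sets (limma adjusted p = 0.0114). In the F test among all probe sets they had adjusted p = 0.0379, 0.143 and 0.0499, in the same order. In the brightest of them, part 3 (175 and 274) overlapped parts 2, 4, 5 and 6.

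**Figure D2:**
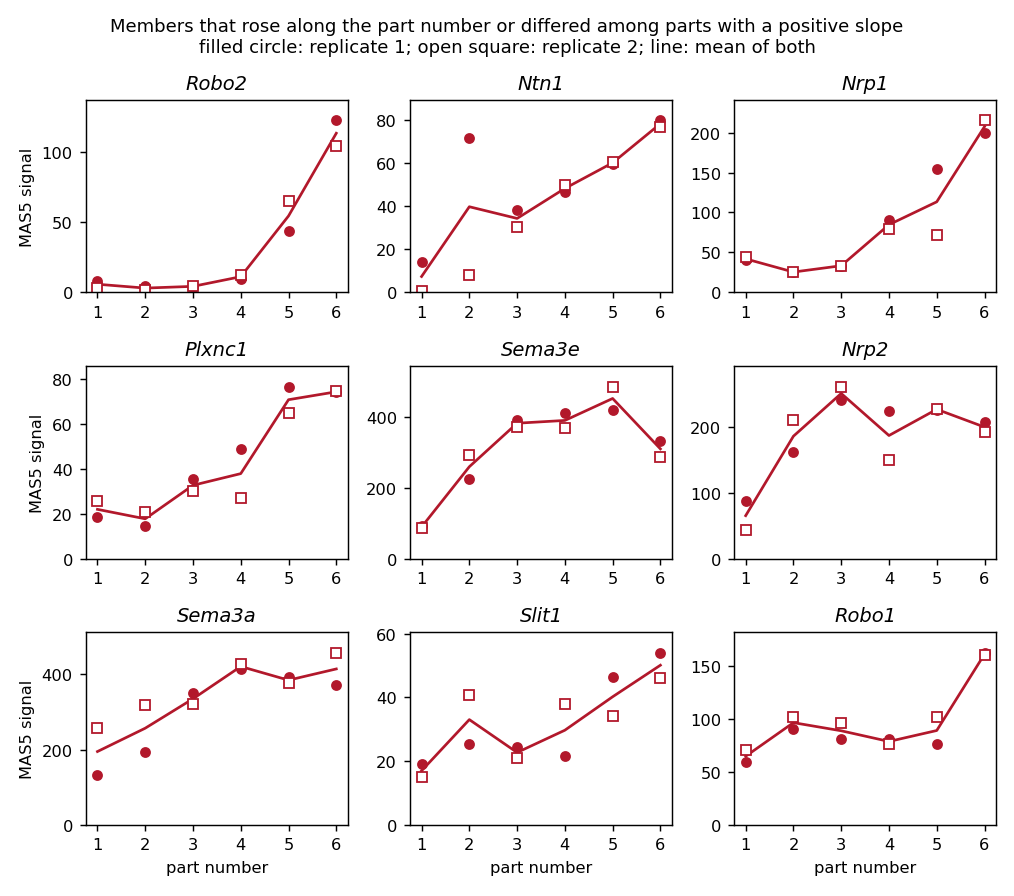
MAS5 signal (vertical axis, linear from 0) against part number for the 9 members that passed the slope or F test with a positive slope (filled circles: replicate 1, open squares: replicate 2, line: mean of both). Robo2, Nrp1 and Plxnc1 are highest in the last parts, Sema3e and Nrp2 are near their highest by part 3, and Ntn1 is split between the embryos in part 2 (71.7 and 7.94).

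Of 9 plexins, all of which passed the filter, Plxnc1 rose, Plxnd1 fell and 7 passed neither test. Plxnc1, the receptor of Sema7a, had signals of 18.4 and 25.4 in part 1, 14.7 and 20.7 in part 2, 35.3 and 29.8 in part 3, 48.5 and 27.0 in part 4, 76.4 and 64.8 in part 5, and 73.8 and 74.4 in part 6. The 4 arrays of parts 5 and 6 lie above all others. Its slope was 0.38 ± 0.053 log2 per part (adjusted p = 0.000349) and kept its call without any one array, and 2 dimmer kept probe sets had slopes of 0.42 and 0.27, the first also called. Part 6 exceeded part 1 by 1.59 ± 0.27 log2 (limma adjusted p = 0.00557), the opposite direction to its ligand Sema7a (-1.11 ± 0.17, adjusted p = 0.00311).

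Plxnd1, the receptor of Sema3e and best known in blood vessels, was dim, with signals of 28.3 and 32.4 in part 1, 26.1 and 23.0 in part 2, 13.6 and 11.98 in part 3, 3.45 and 9.53 in part 4, 6.98 and 13.6 in part 5, and 19.5 and 5.71 in part 6. Parts 1 and 2 lie above all later arrays. Its slope of -0.27 ± 0.083 (adjusted p = 0.0466) was not called with the embryo as a block (0.0520), nor without any one of 10 arrays (up to 0.126), the exceptions being replicate 1 of part 4 and replicate 1 of part 6. The plexins that passed neither test, Plxna1 to Plxna4 and Plxnb1 to Plxnb3, had slopes between -0.08 and 0.03. Nearest to the threshold among them, though far from it, were Plxnb3 (-0.08 ± 0.092, adjusted p = 0.653) and Plxna1 (0.03 ± 0.042, adjusted p = 0.660). Plxna1 averaged 108 ± 5.47 in part 6 and 97.9 ± 40.4 in part 1. The antisense RNA Plxna4os1, which the symbol rule also took in, did not pass the filter.

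Slit and Robo genes also split. Slit1 rose, from a low level: 18.9 and 14.9 in part 1, 25.4 and 40.6 in part 2, 24.6 and 20.8 in part 3, 21.6 and 37.8 in part 4, 46.3 and 34.1 in part 5, and 54.0 and 46.2 in part 6. Part 6 stands above all arrays of parts 1 to 4, with one array of part 5 reaching it. The slope was 0.22 ± 0.054 (adjusted p = 0.0137), and the call was lost without replicate 1 of part 6 (0.0512). Part 6 against part 1 gave 1.35 ± 0.28 log2 (adjusted p = 0.0171), which did not pass without replicate 2 of part 1 or either array of part 6 (up to 0.0994). Slit2 averaged 151 ± 12.7 in part 6 and 255 ± 115 in part 1 and did not pass (slope -0.12 ± 0.057, adjusted p = 0.184). Nor did Slit3, whose embryos differed in part 1 with signals of 70.9 and 11.7 (slope -0.23 ± 0.14, adjusted p = 0.306).

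Robo2, a receptor of Slits, had the steepest slope of all members. Its signals were 8.29 and 3.38 in part 1, 4.58 and 1.62 in part 2, 3.73 and 4.92 in part 3, 9.69 and 12.7 in part 4, 44.0 and 64.8 in part 5, and 122 and 104 in part 6. Every array of parts 1 to 4 lies below its own median, and all arrays of parts 5 and 6 lie above it, with part 6 highest. The slope was 0.79 ± 0.12 log2 per part (adjusted p = 0.000536) and part 6 minus part 1 was 3.56 ± 0.29 log2 (limma adjusted p = 9.27e-05), and both calls held on leaving out any one array. Of that difference 18.1% was covered by part 4 and 71.4% by part 5. Robo2 passed the filter on low signal only through 4 arrays, those of parts 5 and 6. These are the parts where it is high, so its adjusted p-values are not free of that selection. It has only 1 probe set. With 3 of its signals under the offset, the size of its change depends on the offset.

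Robo1, a further Slit receptor, was measurable in every part, with signals of 59.1 and 70.4 in part 1, 90.9 and 102 in part 2, 81.4 and 96.2 in part 3, 80.7 and 76.7 in part 4, 76.3 and 102 in part 5, and 162 and 159.9 in part 6. Part 6 stands above every other array, and parts 2 to 5 overlap. Part 6 minus part 1 was 1.26 ± 0.19 log2 (limma adjusted p = 0.00293), a call that no single array removed but that the mean over 2 kept probe sets did not reach (0.113). The slope (0.17 ± 0.050, adjusted p = 0.0447) was not called without either array of parts 1, 3 and 6 or without replicate 2 of part 5 (up to 0.153), nor the F test (0.0339) without any of 9 arrays (up to 0.188), all but replicate 2 of part 1 and both of part 5. Robo3 did not pass the filter.

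Robo4, a vascular relative of the Slit receptors, fell. Its signals were 49.9 and 33.5 in part 1, 25.8 and 25.7 in part 2, 14.2 and 25.7 in part 3, 11.1 and 16.4 in part 4, 17.8 and 14.7 in part 5, and 15.5 and 15.5 in part 6. Both arrays of part 1 are the highest, and the arrays of parts 4 to 6 lie between 11.1 and 17.8. The slope was -0.23 ± 0.053 (adjusted p = 0.0117), and without both arrays of part 1 it did not pass (0.201). Part 6 minus part 1 was -1.19 ± 0.27 log2 (adjusted p = 0.0234), which did not pass without replicate 1 of part 1 or either array of part 6 (up to 0.121).

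Ntn1, the netrin of the floor plate, rose. Its signals were 14.0 and 0.823 in part 1, 71.7 and 7.94 in part 2, 38.4 and 30.4 in part 3, 46.7 and 50.01 in part 4, 59.9 and 60.6 in part 5, and 79.9 and 76.9 in part 6. The embryos lay close together from part 3 on and far apart in parts 1 and 2, where replicate 1 was the higher. Its slope was 0.54 ± 0.12 log2 per part (adjusted p = 0.00953), called without any one array and not called without both arrays of part 1 (0.137). Part 6 minus part 1 was 3.07 ± 0.75 log2 (adjusted p = 0.0334), a size that depends on the offset, since replicate 2 of part 1 lies under it. That comparison did not pass without any of 9 arrays, all but replicate 1 of part 1 and both of part 2 (up to 0.146), nor with an offset of 1. The other tested netrins, Ntn4 (slope 0.14 ± 0.051, adjusted p = 0.101) and the membrane-anchored netrin G gene Ntng1 (0.24 ± 0.11, adjusted p = 0.163), did not pass, and Ntn3, Ntn5 and Ntng2 did not pass the filter.

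Unc5b, a netrin receptor known in vessels as well as in neural tissue, fell, in the opposite direction to Ntn1. Its signals were 443 and 341 in part 1, 357 and 412 in part 2, 337 and 252 in part 3, 252 and 149 in part 4, 166 and 98.7 in part 5, and 78.5 and 54.0 in part 6. Parts 1 and 2 overlap, and from part 3 each later mean is lower, with both arrays of part 6 below all others. The slope was -0.51 ± 0.061 log2 per part (limma adjusted p = 0.000106), the smallest adjusted p for a slope among the members, and a dimmer probe set had -0.42 (adjusted p = 0.0236 among all probe sets). Unc5b averaged 66.2 ± 17.3 in part 6 and 392 ± 72.0 in part 1, a difference of -2.50 ± 0.33 log2 (limma adjusted p = 0.00146). Only 0.8% of it was covered in part 2 and 16.4% in part 3, a course like that of Sema6a, with 7.2% in part 3. Unc5c did not pass (0.08 ± 0.11, adjusted p = 0.702), nor did Dcc, whose signals lay between 1.66 and 28.8 (-0.15 ± 0.11, adjusted p = 0.419). Unc5a and Unc5d did not pass the filter.

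**Figure D3:**
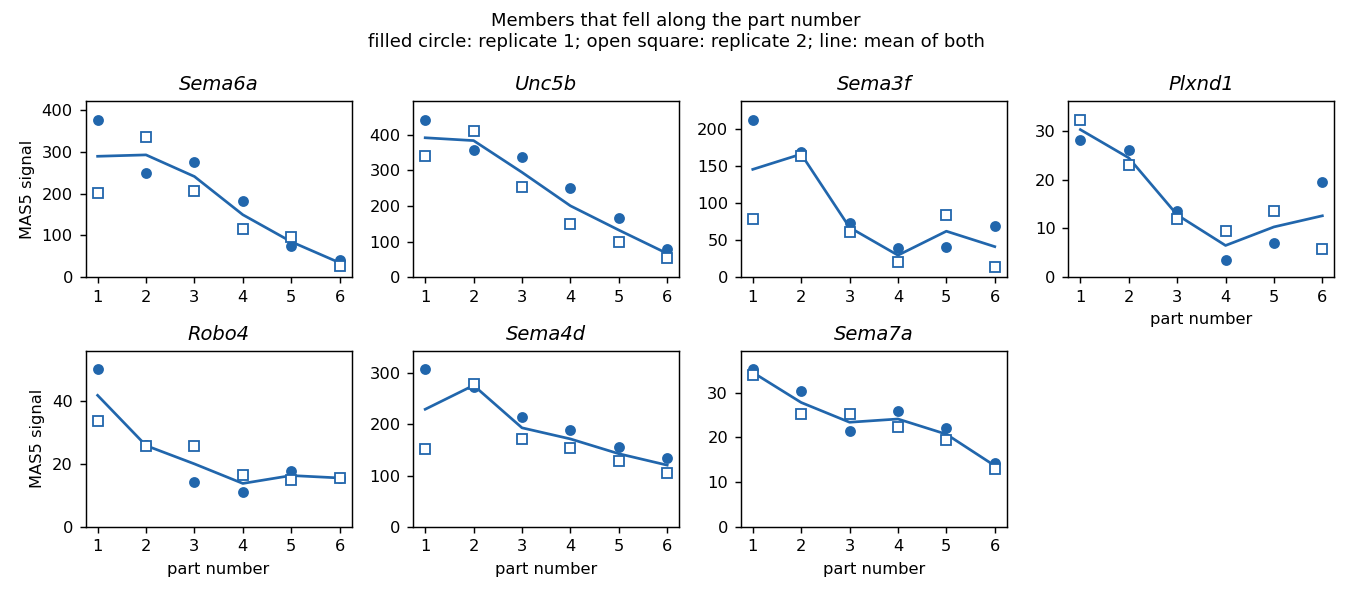
MAS5 signal (vertical axis, linear from 0) against part number for the 7 members that fell (filled circles: replicate 1, open squares: replicate 2, line: mean of both). Sema6a and Unc5b hold their level in parts 1 and 2 and decline to part 6 (34.3 and 66.2 on average), whereas Sema3f, Plxnd1 and Robo4 reach low levels by part 4.

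The direct comparison of the end parts called 8 members higher in part 6 than in part 1 (4.17% of all genes) and 4 lower (4.92%), 12 in all (9.09%). The higher ones were Robo2, Ntn1, Nrp1, Sema3e, Nrp2, Plxnc1, Slit1 and Robo1, and the lower ones Sema6a, Unc5b, Robo4 and Sema7a. Both arrays of part 6 lay above both of part 1 for 12 tested members (20.2% of all genes) and below them for 13 (26.7%). The later steps called no member in limma, and few genes of any kind: 0.091% were higher and 0.0993% lower in part 3 than in part 2, and 0.00827% were higher at each of the steps to part 4, part 5 and part 6. Under an unadjusted p of 0.05 were 5 members at the step to part 3, 3 at the step to part 4, 4 at the step to part 5 and 8 at the step to part 6, against 5.03%, 3.23%, 3.63% and 3.83% of all genes at these steps in turn. The 11 members that did not pass the filter (Ntn3, Ntn5, Ntng2, Plxna4os1, Robo3, Sema3b, Sema3d, Sema3g, Sema6b, Unc5a and Unc5d) had signals between 0.499 and 29.5, each with at most 1 array above its array's median. Dcc and Plxnb3 passed with 2 such arrays, the fewest. Levels this low could be background, and nothing is said here of whether those genes were expressed.

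No member passed a comparison of the embryos. For replicate 2 minus replicate 1 with the part as a covariate, limma called 0 of 39 members higher (0.72% of all genes) and 0 lower (0.91%), with 9 members (23.1%) under an unadjusted p of 0.05, against 19.8% of all genes. Slopes differed between embryos for 0 members and 0 of all genes, with 3 members (7.69%) under an unadjusted p of 0.05, against 6.6% of all genes. Of the 39, 27 were lower in replicate 2, and the share over all genes was not counted.

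Partner genes were counted from lists of co-receptors and effectors. Of 31 tested partners of semaphorins and plexins, 2 rose and 4 fell, where 5.66% of all genes rose and 7.08% fell. Nrcam, an adhesion molecule that joins neuropilin complexes, rose by 0.94 ± 0.042 log2 per part, and the receptor kinase Met, a partner of B-type plexins, by 0.35 ± 0.058. The plexin-associated exchange factor gene Farp1 had a slope of -0.21 ± 0.042 and the kinase-like receptor Ptk7 one of -0.43 ± 0.10. The median slope of this list was -0.03, against -0.01 for all genes.

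Of 25 tested partners of Slits and Robos, 3 rose (5.66% of all genes did) and none passed as lower (7.08% of all genes did), and the median slope was 0.00. Srgap3, a GTPase-activating protein that binds Robo receptors, had signals of 151 and 140.2 in part 6, against 31.0 and 18.1 in part 1 (slope 0.52 ± 0.039). Nell2, a secreted ligand of Robo3, had 83.3 and 96.0 in part 6, against 2.14 and 19.4 in part 1 (0.52 ± 0.13), and the exchange factor gene Sos1 had a slope of 0.12 ± 0.024.

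Of 15 tested partners of netrins, Dcc and Unc5 receptors, 3 rose and 1 fell, against 5.66% and 7.08% of all genes, with a median slope of 0.01. Neo1, the relative of Dcc that also binds repulsive guidance molecules, had signals of 1068 and 1033 in part 6, against 653 and 423 in part 1 (slope 0.19 ± 0.040, limma adjusted p = 0.00687). Its ligand Rgma had 57.8 and 66.9 in part 6, against 8.46 and 16.4 in part 1 (0.43 ± 0.049, adjusted p = 7.76e-05). The actin-binding protein gene Ablim1 had a slope of 0.14 ± 0.031, and Maged1, whose protein binds Unc5 receptors, one of -0.15 ± 0.039.

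Markers of other cell types moved along the same axis. Of 11 tested neural progenitor markers 10 rose, and their summed signal was 7394 and 7741 in part 6, against 619 and 721 in part 1, so markers of the labelled tissue were lowest at that end. Of 7 presomitic mesoderm markers 4 fell, with sums of 248 and 259.8 in part 6, against 5565 and 4020 in part 1, and of 7 surface ectoderm markers 6 fell, with sums of 340.2 and 389 in part 6, against 1290 and 461 in part 1. Most of these part 6 surface ectoderm sums came from Tfap2c, which did not fall (205 and 290 in part 6, against 204 and 44.0 in part 1). Of 9 neuron markers 3 rose and 1 fell (sums of 469 and 495 in part 6, against 309 and 335 in part 1), of 8 neural crest markers Foxd3 and Tfap2b rose (530.2 and 472 in part 6, against 479.9 and 302 in part 1), and of 5 roof plate markers 2 rose and 1 fell. None of 6 blood markers passed the slope test, but the blood sums differed between the embryos, with 105 and 6304 in part 6, against 62.7 and 9969 in part 1. Replicate 2 was also the higher in parts 3 to 5, whereas in part 2 replicate 1 was the higher (6163 and 2833). Lists of neural progenitor, presomitic mesoderm and surface ectoderm markers moved along the same parts as the members that rose and fell, and the part of any of these cell types in those results was not tested.

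For the members best known in vessels, Plxnd1, Robo4, Unc5b and Nrp1, endothelial markers were read beside them. Of 12 endothelial markers 4 passed the filter and none passed the slope test in limma, with sums of 162 and 144 in part 6, against 159.7 and 196 in part 1. The 4 did not move alike: Egfl7 had 42.8 and 34.4 in part 6, against 58.4 and 69.8 in part 1 (slope -0.11 ± 0.050, adjusted p = 0.184), and Ramp2 had 31.1 and 28.0 in part 6, against 46.2 and 38.1 in part 1 (-0.06 ± 0.038, 0.338). Cldn5 had 17.3 and 17.9 in part 6, against 2.68 and 11.1 in part 1, and was highest in part 4 with 44.6 and 62.7 (0.28 ± 0.14, 0.246), and Kdr had 21.7 and 14.9 in part 6, against 13.5 and 18.7 in part 1 (-0.03 ± 0.058, 0.808). The part of endothelial cells in the results for Plxnd1 and Robo4 was not tested. Among the 8 that did not pass the filter, the defining markers Tie1 and Pecam1 were dim: Tie1 had signals of 0.606 and 0.857 in part 6, against 1.08 and 0.723 in part 1, and Pecam1 had 5.41 and 5.90 in part 6, against 2.80 and 1.91 in part 1. For Ntn1, 2 of 3 tested floor plate markers rose, with sums of 374 and 341 in part 6, against 139.7 and 71.8 in part 1. Spon1 had 216 and 212 in part 6, against 9.35 and 20.8 in part 1, and Foxa2 had 104 and 90.6 in part 6, against 48.3 and 11.5 in part 1. Shh did not pass, with 41.2 and 34.0 in part 6, against 71.0 and 26.2 in part 1, and with embryos far apart in part 2 (504 and 25.3). Foxa2 and Shh also stood on a notochord list, of which 2 of 3 tested markers rose. Notochord sums were 315 and 296 in part 6, against 198 and 113 in part 1. Of 3 tested somite markers 1 fell. In part 2, where the embryos also differed in Ntn1, the sums were 636 and 138 for notochord and 474 and 115 for somite. The part of floor plate, notochord or somite tissue in the Ntn1 result was not tested.

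**Figure D4:**
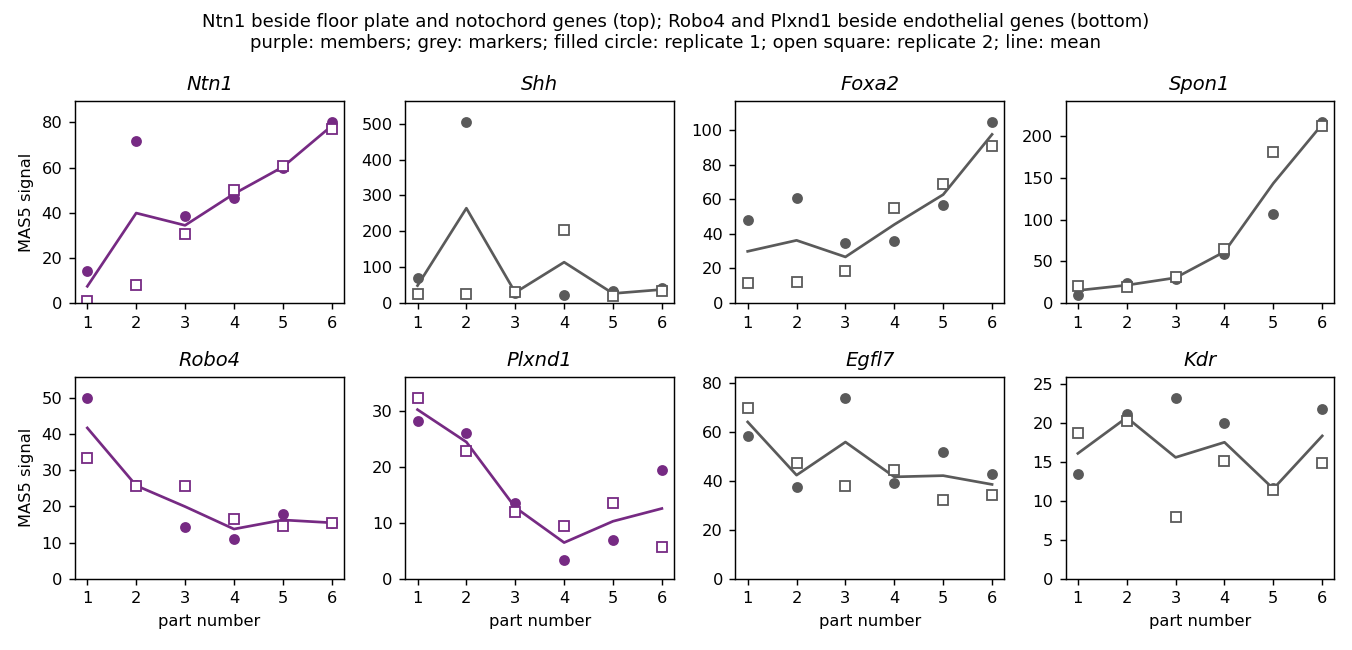
MAS5 signal (vertical axis, linear from 0) against part number for Ntn1 beside the floor plate markers Shh, Foxa2 and Spon1, and for Robo4 and Plxnd1 beside the endothelial markers Egfl7 and Kdr (filled circles: replicate 1, open squares: replicate 2, line: mean of both). Spon1 is highest in part 6 (216 and 212), and Shh in part 2 of replicate 1 (504). The tested endothelial markers Ramp2 and Cldn5 are not shown, and Cldn5 was highest in part 4 (44.6 and 62.7).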

How the data were processed

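Per the submitters' processing notes, the authors made the deposited intensities with MAS5, as 1 linear signal per probe set and array. Its settings were not given in the sources used here. On every array the trimmed mean (2% left out at each end) was 100. Detection calls were not used here, so dim signals cannot be told from background, and the number of arrays, 2 per part, limits the precision. Of 45101 probe sets, 34945 had 1 gene symbol in GEO's platform annotation, 932 had several and 9160 had none, beside 64 controls; 34741 matched RefSeq by Entrez identifier.

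From these values, probe sets above the median of their own array in at least 2 of 12 arrays were kept (21679), each gene was represented by the kept one with the highest mean (12089 genes), and log2(signal + 4.43) was taken, the offset being 0.25 of the median signal. Fitted differences are on this log2 scale and understate the change of dim genes. limma 3.58.1 (R 4.3.3) gave every adjusted p, by Benjamini-Hochberg over all genes tested, two-sided, with a threshold of 0.05. The fits between parts were the slope per part number, the F test among parts, part 6 minus part 1 and the 5 consecutive steps. Those between replicates were replicate 2 minus replicate 1 with the part as a covariate, and the difference in slope. Only the slope, the F test and part 6 minus part 1 were checked on simulated data. At a simulated slope of 0.25 the slope test found 78% of the altered genes, part 6 minus part 1 53% and the F test 25%. At 0.5 these shares were 95%, 90% and 80%. Among the unaltered genes the slope test made 15 false calls, part 6 minus part 1 made 8 and the F test 2. The simulated noise was independent between arrays, without the correlation of same-numbered arrays given below, so these shares need not hold for the real arrays.

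The replicate number was taken as the embryo. The design text names 2 embryos, and across genes, deviations from the part mean correlated between same-numbered arrays for each of the 15 pairs of parts (0.183 to 0.335). The labels do not name the embryo of each array, and arrays handled together could correlate in the same way, so this remains an assumption. The fits without that block treat the arrays of an embryo as independent. Alternatives covered the offset, the filter, the normalization, the choice of probe set, the variance model, the block and arrays left out.

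The members, the lists of partner genes and the markers were chosen with earlier results of these data known. By the rule for naming, members that passed the slope or F test are given with every array, up to 2 others per family by the smallest slope p, and up to 4 partner genes per list among those that passed. Some dim members outside that rule are named only to account for them.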

Additional observations from a re-analysis of the deposited data

How the results depend on the processing

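The 15 members that passed the slope test became 9 with a filter at the 75th percentile, which left 19 members tested, and 8 without both arrays of part 1. The 9 that passed the F test became 5 without both arrays of part 1 and 3 without both arrays of part 6; fewer samples entered these fits. Leaving out 1 array at a time gave 10 to 14 slope calls (10 without replicate 1 of part 1), 6 to 8 F calls, 8 to 13 calls for part 6 against part 1 (12 with all arrays, 8 without replicate 2 of part 6), 0 to 2 step calls (0 without replicate 2 of part 1 or of part 2, 2 without replicate 1 of part 1), and 0 calls between embryos or for the slope difference. Shares over all genes are not given for these alternatives, so the changed counts are not read as particular to the members. With the embryo as a replicate block, 15 members passed the slope test, 14 of them shared with the fit without it: Plxnd1 was lost and Sema4f gained. The F test kept all 9, part 6 against part 1 gave 14, with Sema3a and Sema4d added, and the pairing changed no other call of a member named here. Of 38 results for single members, no slope or difference between parts changed sign under the alternatives run for it. The F results among them have no sign, and single probe sets were not among these alternatives. Over the 38 results, 123 of 830 values lost their call and 1 gained it, Nrp2 for the slope with the mean of all kept probe sets (adjusted p = 0.0405). Signals under the offset carry no order, and no detection call was used to separate dim members from background.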

Other observations

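Further probe sets, looked at after the values were seen, mostly followed the one reported. In 10 of the 16 members that passed the slope or the F test, 19 further probe sets passed the filter. All 19 had a slope of the same sign, and 9 of them passed the slope test among all probe sets. A dimmer probe set of Slit1 was steeper than the reported one, with a slope of 0.53 (limma adjusted p = 0.00147 over all probe sets). Its signals were 45.0 and 42.5 in part 6, against 1.53 and 7.96 in part 1. A dimmer probe set of Sema3f passed the F test (adjusted p = 0.00113), which the reported one did not. It had signals of 30.5 and 22.9 in part 1, 22.8 and 22.3 in part 2, and at most 7.02 on any array of parts 3 to 6.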
